A study of Rattus norvegicus with 304 samples.

Results

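Liver RNA of Han/Wistar rats was compared 384 h, or 16 days, after a single oral dose of 100 µg/kg of the dioxin TCDD (2,3,7,8-tetrachlorodibenzo-p-dioxin) with liver RNA of rats given the corn oil vehicle and killed at the same time. The samples were chosen by strain, dose and time as their labels give them. They are 7 of 150 OpenArray samples (real-time PCR in nanolitre wells with preloaded assays), of which 3 had received corn oil and 4 TCDD. A check used 8 of 154 samples measured on the 7900HT, a plate-based instrument for real-time PCR, 4 with corn oil and 4 with TCDD, and the whole series holds 304 samples. All rats were males of 10 to 12 weeks dosed by gavage, and the study's text describes Han/Wistar as the TCDD-resistant strain and Long-Evans as the sensitive one. The other Han/Wistar groups used here had received the same dose and were killed 1.5, 3, 6, 10, 19, 96 or 240 h later, or had received corn oil and were killed at 1.5, 19, 96 or 240 h, with 3 to 6 samples a group on the OpenArray and 3 to 7 on the 7900HT. At 19 h, groups at 8 TCDD doses from 0.001 to 3000 µg/kg were also available.

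For each platform, the authors' deposited table gives every gene and group 1 log2 value against the same strain's corn oil group at 19 h. It covers 49 OpenArray and 39 7900HT targets. The log base is inferred, since no header states it. In what follows, a group value is on that scale, and a difference is the TCDD group minus the corn oil group of the same time, so that the 19 h baseline cancels. No value per animal was used, the spread between animals and the depth behind each value are unknown, and a difference at 384 h between 1 value and 1 value has no test. The range over the corn oil groups is given as the background instead. In liver tissue, fewer cells of a type and less RNA per cell cannot be told apart. None of the listed markers of hepatocytes or other liver cell types was on either platform, so the tissue label was not checked.

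TCDD binds the aryl hydrocarbon receptor (AHR), which then pairs with ARNT in the nucleus and binds DNA at a short core motif upstream of genes for foreign-compound metabolism. Tiparp and Ahrr are targets of the receptor whose products hold it back. TCDD itself is broken down very slowly in the rat, and the receptor's resistant form in Han/Wistar rats lacks part of its transactivation domain.

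The core motif, GCGTG on either strand (CACGC when read on the other), was looked for in the 250 bases before the annotated start of each target gene in RefSeq's promoter table for GRCr8, in which 43 of the 50 targets of both platforms had an entry. It was present for 10 of the 17 targets with an entry that were at least 2-fold higher at 384 h on the OpenArray, for 1 of the 3 at least 2-fold lower, for 7 of the 21 in between, and for 28.4% of all 27457 genes in the table. Over all 43 targets with an entry it was present for 19 (44.2%). Cyp1a1 and Aldh3a1 have no entry. The sequences of 5 targets, 5′ to 3′, on which the results turn are shown with the motif in capitals: both feedback repressors, the P450 enzyme with the widest difference, the quinone reductase Nqo1, and Inmt, which was lowest and has no match in this window. A match is a run of letters and says nothing of binding, and a window without a match says nothing of the receptor elsewhere.
Ahrr (chr1:30821969-30822218, plus strand): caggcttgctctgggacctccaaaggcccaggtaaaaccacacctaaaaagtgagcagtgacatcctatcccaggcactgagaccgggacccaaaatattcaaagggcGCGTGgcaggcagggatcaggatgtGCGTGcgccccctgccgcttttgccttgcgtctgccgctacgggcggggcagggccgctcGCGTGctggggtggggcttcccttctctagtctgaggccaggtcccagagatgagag
Cyp1b1 (chr6:21094315-21094564, plus strand): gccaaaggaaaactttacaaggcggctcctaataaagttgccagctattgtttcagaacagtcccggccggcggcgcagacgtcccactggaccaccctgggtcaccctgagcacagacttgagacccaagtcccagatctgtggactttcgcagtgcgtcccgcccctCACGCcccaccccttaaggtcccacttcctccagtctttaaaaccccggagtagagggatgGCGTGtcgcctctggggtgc
Tiparp (chr2:152063519-152063768, plus strand): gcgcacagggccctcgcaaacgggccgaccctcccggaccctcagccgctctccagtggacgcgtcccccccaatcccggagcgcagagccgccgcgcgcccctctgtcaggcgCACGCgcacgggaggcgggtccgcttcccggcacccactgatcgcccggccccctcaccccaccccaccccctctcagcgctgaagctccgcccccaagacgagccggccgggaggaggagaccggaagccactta
Nqo1 (chr19:52220268-52220517, minus strand): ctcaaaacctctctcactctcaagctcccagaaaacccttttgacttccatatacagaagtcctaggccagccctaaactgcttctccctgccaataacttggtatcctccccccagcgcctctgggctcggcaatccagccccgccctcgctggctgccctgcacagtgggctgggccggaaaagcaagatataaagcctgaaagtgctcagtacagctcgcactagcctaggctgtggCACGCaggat
Inmt (chr4:85652756-85653005, minus strand): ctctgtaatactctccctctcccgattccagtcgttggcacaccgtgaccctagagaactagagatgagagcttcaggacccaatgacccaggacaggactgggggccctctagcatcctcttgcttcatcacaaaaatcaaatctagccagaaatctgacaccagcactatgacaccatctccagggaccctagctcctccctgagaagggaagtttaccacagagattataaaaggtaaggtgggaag
In Ahrr the matches start 142, 117 and 57 bases before the start, in Cyp1b1 81 and 20, in Tiparp 136 and in Nqo1 10.

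At 384 h the CYP1 enzymes, Aldh3a1 and the AHR repressor stood far above corn oil on the OpenArray, and the methyltransferase Inmt far below it. Of the 48 targets with a value in both groups, 22 (45.8%) were past 2-fold: 19 were at least 2-fold higher with TCDD (39.6%) and 3 were at least 2-fold lower (6.25%). The other 26 lay within 2-fold. The median difference over all targets was 0.60 log2 units. All 22 targets past 2-fold had a TCDD value outside the range of the listed corn oil groups, and over the panel 32 of 49 TCDD values lay above that range (65.3%) and 10 below it (20.4%). The split of 19 higher and 3 lower depended on the scale. Centring each group on its median moved all differences by 0.58 and gave 14 higher and 5 lower, and centring on the mean moved them by 1.45 and gave 8 and 20.

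**Figure D1:**
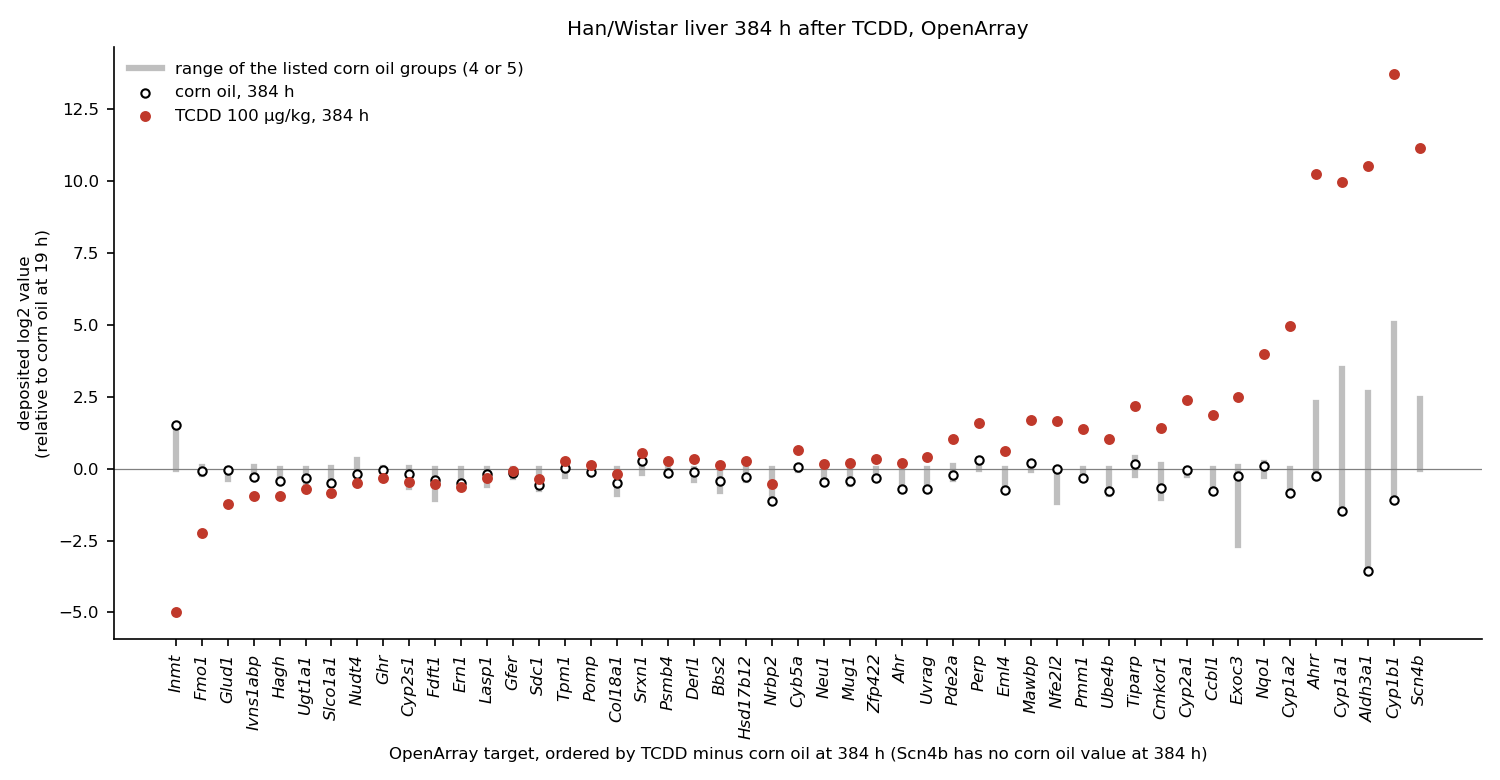
Deposited log2 values of 49 OpenArray targets in Han/Wistar liver, ordered by the difference at 384 h. Filled points are the TCDD group at 384 h, open points corn oil at 384 h, and grey bars the range of the listed corn oil groups of 1.5 to 384 h; Cyp1b1 stands highest at 13.74 and Inmt lowest at -4.99, both outside their bars.

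The persistence of a response was asked of targets called without either 384 h group. The mean of the 7 TCDD groups from 1.5 to 240 h was set against the mean of the 4 corn oil groups of that span by a two-sided exact permutation test over 330 splits, with Benjamini-Hochberg adjustment over all 49 targets. Of these 12 passed (24.5%), and all 12 were higher. They were Aldh3a1, Ccbl1, Cyp1a1, Eml4, Mawbp, Nfe2l2, Nqo1, Pde2a, Pmm1, Tiparp, Ube4b and Uvrag. Each of the 12 had an adjusted p of 0.0371 in the exact permutation test. Each was also at least 2-fold higher at 384 h (against 39.6% of the panel). All 12 were higher than corn oil at all 5 times with a corn oil group, as were 22 targets over the panel. The groups of 1.5 to 240 h entered the call itself, so only the 384 h value adds to it. No target was called lower by the exact permutation test, while 2 lower and 22 higher ones had an unadjusted p under 0.05. The calls depended on the scale and on the groups entered. With each group mean-centred 4 were called higher and 24 lower, with median centring 5 were called lower, and with only times that have both groups 0 were called higher. With 1 group left out, 19 targets passed without TCDD at 1.5 h and 0 without any other single group. In these runs, as with only times that have both groups, fewer splits raise the smallest p the test allows. The run without TCDD at 1.5 h, with its 19 calls, has as many splits as that without any other TCDD group. The 12 calls thus hang on single groups, and why they were lost was not tested. The test over 330 splits also includes the TCDD groups of 1.5 to 10 h. With the TCDD groups at 19, 96 and 240 h alone against the 4 corn oil groups, 28 of 49 targets (57.1%), 22 higher and 6 lower, had an adjusted exact permutation p of 0.05, exactly at the threshold. That exact permutation test has 35 splits, and its smallest possible p before adjustment is 0.0286. All 28 had this p, so they passed together or not at all. Of the 27 of them with a difference at 384 h, 21 higher and 6 lower, all had the same sign there (56.2% of 48 targets). Past 2-fold the same way were 16 higher (33.3%) and 3 lower ones (6.25%). These percentages are the counts themselves as shares of the 48 targets and are no background. Over all 48 targets, 39.6% were at least 2-fold higher at 384 h and 6.25% at least 2-fold lower. The median difference over the panel was 0.60 log2 units. Most of the panel was therefore higher at 384 h, so the higher sign shared by the 21 targets is common there.

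The widest differences were those of Cyp1b1, Aldh3a1, Cyp1a1 and Ahrr, followed by Inmt and Cyp1a2. Cyp1a1, the classical target of the receptor, stood at 5.63, 8.50, 9.96, 9.37, 9.99, 10.06, 9.84 and 9.97 log2 units from 1.5 to 384 h after TCDD in the authors' deposited table. Corn oil of Cyp1a1 stood there at 3.47, 0.00, 0.70, 1.27 and -1.48 at 1.5, 19, 96, 240 and 384 h. The TCDD value at 384 h was 0.13 above that at 240 h, and the step from 19 h was -0.014, and no TCDD group overlapped the corn oil groups. The difference at 384 h was 11.45, against 8.57 at 240 h, and the change between those times lay in corn oil, which moved by -2.75. Cyp1a2, the main constitutive CYP1 enzyme of liver, stood at 3.83 at 240 h and 4.97 at 384 h after TCDD in the authors' deposited table, with corn oil between -0.84 and 0.00 at all 5 times. Its difference was 4.51 at 240 h and 5.82 at 384 h, and here corn oil moved by only -0.16. It missed the threshold before 384 h (adjusted exact permutation p = 0.0530).

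Cyp1b1, a P450 enzyme that acts on steroids and polycyclic compounds, had a TCDD value that was higher at each later time on the OpenArray. It stood at 2.09, 4.60, 5.21, 6.49, 10.62, 13.12, 13.44 and 13.74 from 1.5 to 384 h after TCDD in the authors' deposited table. Corn oil stood at -0.59, 0.00, 4.38, 5.05 and -1.10 at its 5 times in the authors' deposited table. The difference of 14.84 at 384 h is the widest on the panel, but it was 8.39 at 240 h, and between these times the corn oil value moved by -6.15 and the TCDD value by 0.30. Against the mean of all 5 corn oil groups the TCDD value at 384 h was 12.19 higher. Cyp1b1 did not pass before 384 h (adjusted exact permutation p = 0.0968).

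Among the other enzymes of foreign-compound metabolism, Nqo1, which reduces quinones, was steady on the OpenArray. It stood at 0.09 at 1.5 h and 2.69 at 3 h, and then between 3.51 and 4.29 at every later time after TCDD in the authors' deposited table, with 3.98 at 384 h. Corn oil stayed between -0.27 and 0.20, so the difference of 3.89 at 384 h, or 14.8-fold, rests little on the choice of control. Aldh3a1, an aldehyde dehydrogenase, stood at 10.54 at 19, 96 and 384 h and 10.69 at 240 h after TCDD in the authors' deposited table. Corn oil of Aldh3a1 stood at -3.33, 0.00, 1.38, 2.62 and -3.54 in the authors' deposited table, a spread of over 6 log2 units. The difference of 14.08 at 384 h against 8.07 at 240 h was therefore a change of the control, by -6.17, and not of the TCDD group. Nfe2l2, the transcription factor NRF2 of the antioxidant response, was 1.68 higher at 384 h and 1.94 higher at 240 h. Srxn1, a sulfiredoxin and a target of that factor, stood at 1.41 at 3 h and 0.56 at 384 h after TCDD in the authors' deposited table, with a difference at 384 h of 0.30. On the 7900HT Srxn1 differed by 1.36, 3.06, 2.54 and 2.25 at 19, 96, 240 and 384 h. Cyp2a1, a steroid hydroxylase of rat liver, stood at 0.06, -0.28, 0.27, 0.65, 1.04, 1.38, 1.98 and 2.40 from 1.5 to 384 h after TCDD in the authors' deposited table, each value from 6 h on above the one before. Its corn oil groups stayed between -0.22 and 0.00, and its difference was 2.45 at 384 h and 1.04 at 19 h.

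**Figure D2:**
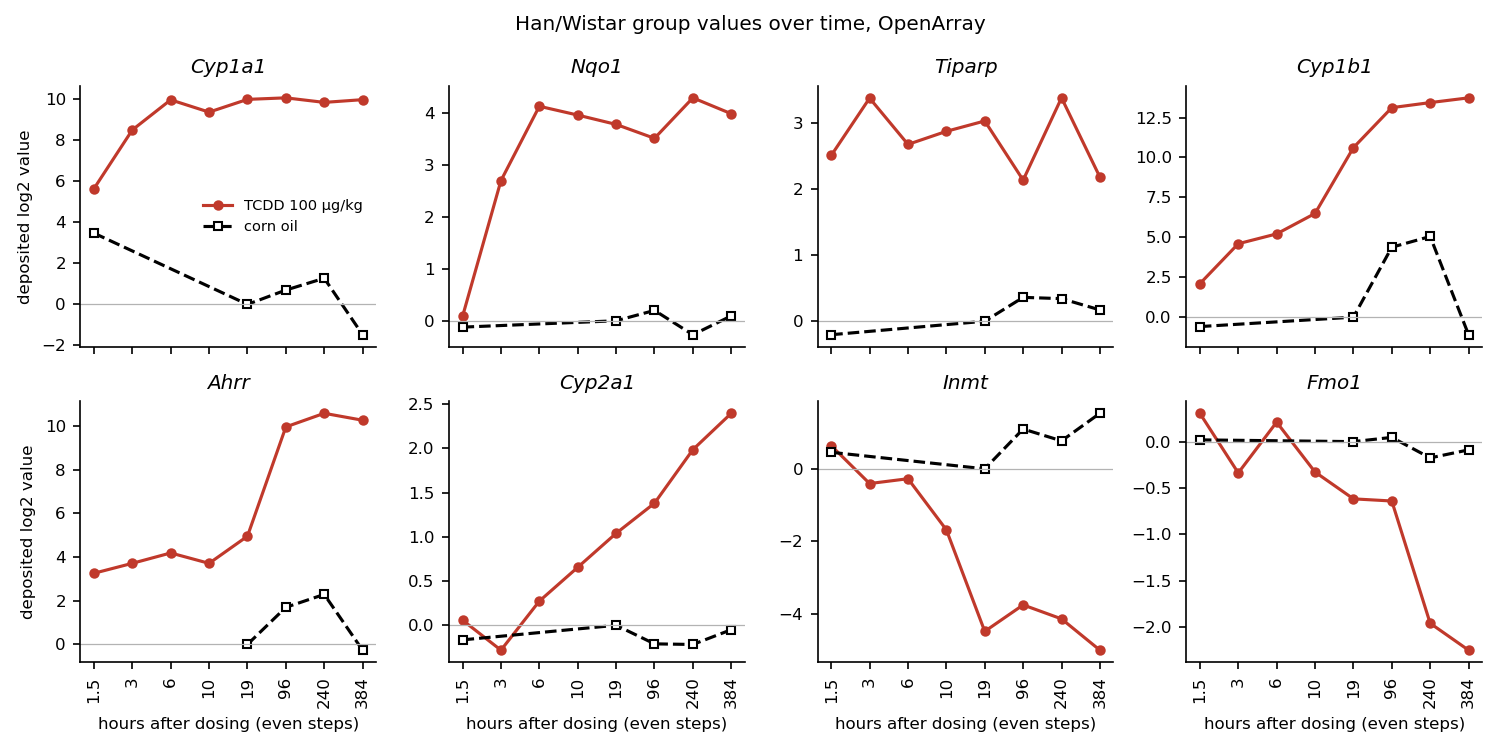
Deposited log2 values of 8 OpenArray targets in Han/Wistar liver against hours after dosing, drawn in even steps; red points are TCDD groups and open squares corn oil groups. Cyp1a1 and Nqo1 are level from 6 h on, Cyp2a1 and Cyp1b1 are highest at 384 h, Inmt and Fmo1 are lowest there, and corn oil of Cyp1b1 moves from 5.05 at 240 h to -1.10 at 384 h.

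Both feedback repressors of the receptor stood above corn oil at 384 h on the OpenArray, and both stood below it on the 7900HT (-3.51 for Tiparp and -9.19 for Ahrr). Tiparp, an ADP-ribosyltransferase, stood at 2.50, 3.37, 2.67, 2.87, 3.02, 2.13, 3.37 and 2.18 from 1.5 to 384 h after TCDD in the authors' deposited table, and corn oil at -0.20 to 0.36. Its difference was 2.01 at 384 h, 3.03 at 240 h and 1.77 at 96 h, so the value at 384 h lies inside the range of the earlier ones. Ahrr, the AHR repressor, stood at 3.26 to 4.95 up to 19 h, then at 9.95, 10.58 and 10.26 at 96, 240 and 384 h in the authors' deposited table. Corn oil of Ahrr stood at 0.00, 1.70, 2.29 and -0.26 at 19, 96, 240 and 384 h and has no value at 1.5 h, and the difference at 384 h was 10.52. Ahrr did not pass before 384 h (adjusted exact permutation p = 0.110). Ahr, the receptor, stood at 0.21 with TCDD and -0.72 with corn oil at 384 h in the authors' deposited table, a difference of 0.92 that is below 2-fold, beside a median shift of 0.58 over the panel. Its partner Arnt was on the 7900HT only.

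The AHR battery list holds 14 measured targets on the OpenArray, and of its 13 members with a difference at 384 h, 10 were at least 2-fold higher and 2 lower (39.6% and 6.25% over the panel), with a median difference of 2.63 beside 0.60 over all targets. Several members were put on the list with their response in these data known, so its direction is not independent evidence. Exoc3, a subunit of the exocyst whose gene follows Ahrr on chromosome 1 in RefSeq's table, was 2.76 higher at 384 h. Its TCDD value there was 2.50 in the authors' deposited table, with corn oil at -2.66 at 1.5 h and between -0.41 and 0.05 at the other times. Scn4b, a sodium channel beta subunit, stood at 5.03, 9.62, 10.64 and 11.15 at 19, 96, 240 and 384 h after TCDD in the authors' deposited table. It is listed without a value for corn oil at 384 h, and the other corn oil groups stood between 0.00 and 2.42. The remaining member within 2-fold was Ugt1a1, the bilirubin glucuronidating enzyme, at -0.39.

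Ccbl1, Pmm1 and Mawbp are further members of the AHR battery list past 2-fold. Ccbl1, now called Kyat1, a cysteine conjugate lyase and kynurenine aminotransferase, differed by 1.56, 2.42, 2.17 and 2.63 at 19, 96, 240 and 384 h. Pmm1, a phosphomannomutase, differed by 1.22, 0.94, 1.17 and 1.69 at the same times. Mawbp, now called Pbld1, differed by 1.23, 1.32, 1.81 and 1.49. These 3 were called before 384 h, and their corn oil groups spanned less than 0.8 log2 units. Outside that list, Cmkor1, now called Ackr3, a chemokine scavenging receptor, stood at -0.53, 1.76, 2.67 and 1.41 at 19, 96, 240 and 384 h after TCDD in the authors' deposited table. Its difference was 2.08 at 384 h, 2.56 at 240 h and -0.53 at 19 h. Smaller differences at 384 h were those of Ube4b, a ubiquitin chain factor (1.80), Eml4, a microtubule-binding protein (1.38), Perp, a membrane protein of desmosomes (1.30), Pde2a, a cyclic nucleotide phosphodiesterase (1.26), and Uvrag, an autophagy protein (1.11). Of these, Eml4, Perp, Pde2a and Uvrag turned to between -0.34 and -0.07 under centring on the group mean.

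Of the 3 targets at least 2-fold lower, Inmt, an indolamine methyltransferase, stood at 0.64, -0.41, -0.27, -1.68, -4.47, -3.75, -4.13 and -4.99 from 1.5 to 384 h after TCDD in the authors' deposited table. Corn oil of Inmt stood at 0.45, 0.00, 1.10, 0.77 and 1.53 in the authors' deposited table, so the widest gap, -6.52 at 384 h, joins the lowest TCDD value with the highest corn oil value. Against the mean of the corn oil groups it was -5.76. Fmo1, a flavin monooxygenase, stood at -0.62, -0.64, -1.96 and -2.25 at 19, 96, 240 and 384 h in the authors' deposited table, with corn oil between -0.18 and 0.05. Its difference at 384 h of -2.16 compares with -0.62 at 19 h. Glud1, the glutamate dehydrogenase of mitochondria, differed by -0.79, -0.78, -1.08 and -1.18 at 19, 96, 240 and 384 h, with corn oil between -0.36 and 0.01. None of the 3 passed the test over the groups before 384 h (adjusted exact permutation p = 0.0778 for Inmt, 0.408 for Fmo1 and 0.331 for Glud1), which includes the TCDD groups from 1.5 to 10 h.

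The shorter lists hold few measured targets and are given as values, beside 45.8% of the panel past 2-fold. Of the proteasome and endoplasmic reticulum list, 0 of 3 measured targets were past 2-fold: Derl1, a factor of protein retrotranslocation, differed by 0.45, the proteasome subunit Psmb4 by 0.43 and the stress sensor Ern1 by -0.13. Of the cytoskeleton and matrix list only Eml4 of 4 was past it, with Ivns1abp at -0.65, Lasp1 at -0.11 and the proteoglycan Sdc1 at 0.22. The 7900HT differed for both lists, beside 71.8% of its targets past 2-fold. There Derl1 differed by 1.79, Psmb4 by -0.10 and Ern1 by -3.29. Ivns1abp differed there by -2.79, Sdc1 by -2.03, Lasp1 by -1.79 and Eml4 by -0.29. Of the lipid and secreted list, Fdft1, which makes squalene, differed by -0.15 and the plasma protease inhibitor Mug1 by 0.63. Mug1 had differed by -0.97 at 19 h, and its TCDD value went from -0.97 at 19 h to 0.37, 0.03 and 0.22 at 96, 240 and 384 h in the authors' deposited table. The other targets lower by over 0.3 were Hagh, a glyoxalase enzyme, at -0.52, the organic anion transporter Slco1a1 at -0.35 and Nudt4 at -0.30. Slco1a1 is the one OpenArray target that was lower than corn oil at all 5 times, while 22 targets were higher at all 5. Its difference at 1.5 h was only -0.019. On the 7900HT 11 targets were lower at all 5 times and 7 were higher. Cyb5a, cytochrome b5, differed by 0.61 at 384 h and by 0.59 to 0.73 at 19 to 240 h, with corn oil within 0.06 of 0.

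The differences at 384 h resembled those at 240 and 96 h, although no group is shared between them. Of the 22 targets past 2-fold at 384 h, 20 were past it the same way at 240 h (44.9% of 49 targets past it there), 19 at 96 h (44.9%) and 15 at 19 h (36.7%). Over the panel, 36.7% were at least 2-fold higher and 8.16% lower at 240 h, 42.9% and 2.04% at 96 h, and 30.6% and 6.12% at 19 h. Conversely, of the 21 targets past 2-fold at 240 h that have a difference at 384 h, 20 were past it the same way there, and of the 17 such at 19 h, 15 were. Across the 48 genes Pearson's r between 384 h and 240 h was 0.97 and Spearman's rho 0.96, and r was 0.96 over 44 genes without Cyp1a1, Cyp1b1, Aldh3a1 and Ahrr, a set chosen after the values were seen. The genes share the RNA samples, so these are descriptions. The TCDD values moved by a median of 0.19 log2 units in either direction from 240 to 384 h, and the corn oil values by 0.17, and 40 of 49 TCDD values moved by at most 0.5. The widest TCDD steps were those of Cmkor1 (-1.27), Tiparp (-1.20) and Cyp1a2 (1.15). The widest corn oil steps were those of Aldh3a1 (-6.17), Cyp1b1 (-6.15), Cyp1a1 (-2.75) and Ahrr (-2.55), all downward. Whether corn oil at 96 and 240 h was high or corn oil at 384 h low for these 4 was not tested. These steps are those of the OpenArray. On the 7900HT the TCDD values moved by a median of 0.93 and the corn oil values by 0.49, and 10 of 39 TCDD values moved by at most 0.5. The TCDD value there moved by -2.50 for Cyp1a1, -2.37 for Nqo1, -1.73 for Cyp1b1, -1.58 for Inmt and 1.86 for Fmo1.

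**Figure D3:**
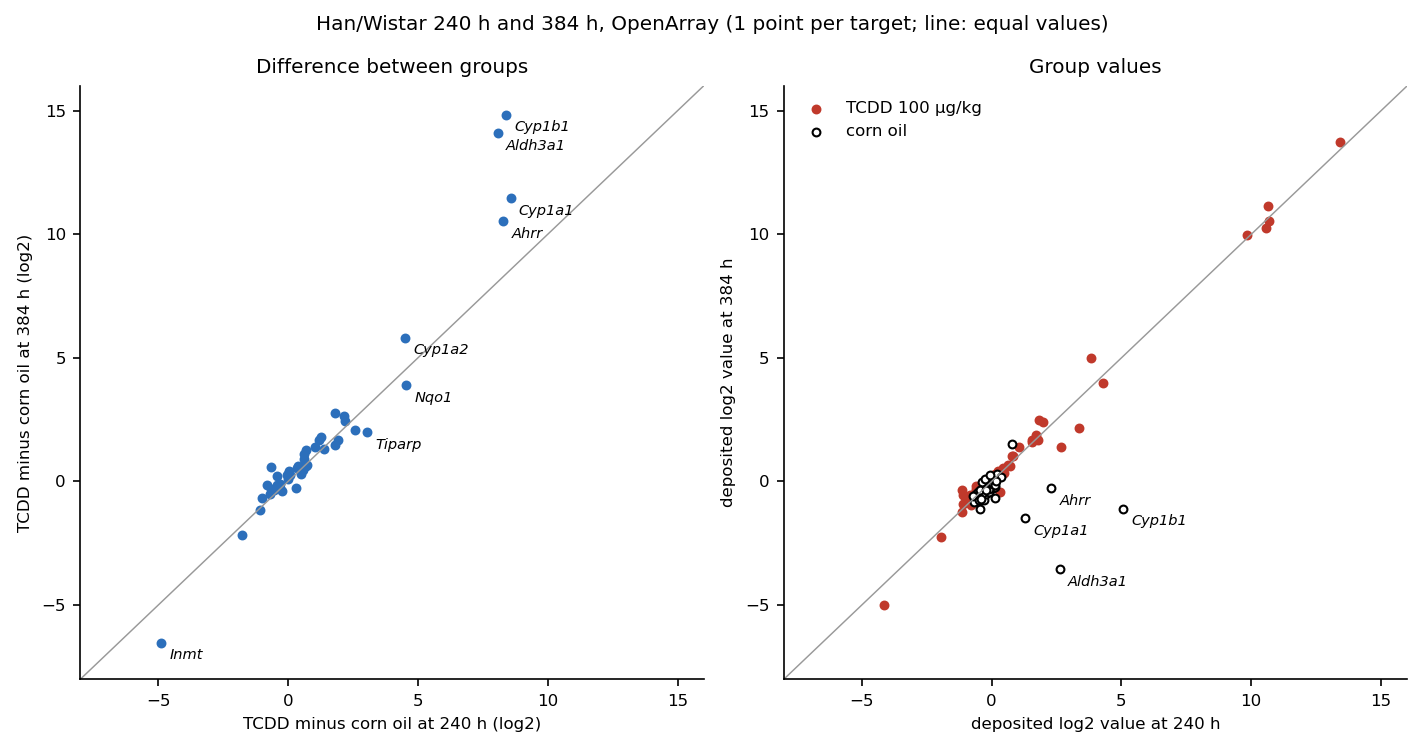
OpenArray targets in Han/Wistar liver at 240 h (horizontal axis) and 384 h (vertical axis), 1 point per target, as TCDD minus corn oil on the left and as deposited log2 group values on the right, with a line of equal values. The 4 targets far above the line on the left, Cyp1b1, Aldh3a1, Cyp1a1 and Ahrr, have TCDD values near the line on the right and corn oil steps of -6.17 to -2.55.

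The 384 h values were also set beside those of the 8 doses at 19 h, which share the same baseline. For 25 of 49 targets the TCDD value at 384 h lay outside the span of the 19 h doses. Cyp1a1, at 9.97, lay inside it, since 1 to 3000 µg/kg gave 9.38 to 9.99 at 19 h in the authors' deposited table. In the authors' deposited table Tiparp, at 2.18, lay between its value for 1 µg/kg (1.07) and that for 10 µg/kg (2.89). Fmo1, at -2.25 in the authors' deposited table, was below every 19 h dose, the lowest of which was -0.98 at 10 µg/kg. Cyp2a1, at 2.40 in the authors' deposited table, was above every one, the highest of which was 1.25 at 3000 µg/kg, and Cyp1b1, at 13.74, was above the 10.62 of 100 µg/kg. Ahrr, at 10.26, compares with at most 4.95, and Scn4b, at 11.15, with at most 5.03, over 7 listed doses each in the authors' deposited table. Inmt, at -4.99 in the authors' deposited table, lay inside the span, above the -5.16 of 3000 µg/kg. A dose and a time differ in these pairs, so they stand side by side without a comparison.

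The 7900HT gave the same sign for the 3 CYP1 enzymes and for Inmt but not for the whole panel. All 39 targets have a difference at 384 h there, and 71.8% were past 2-fold, against 76.9% at 19 h, 84.6% at 96 h and 81.6% at 240 h (47.4% higher and 34.2% lower). At 384 h, 14 were at least 2-fold higher (35.9%) and 14 at least 2-fold lower (35.9%). Of the 20 shared targets past 2-fold on the OpenArray, 13 had the same sign on the 7900HT (12 of them past 2-fold) and 7 the opposite sign, while 21 of the 39 differences there were below 0. The 3 lower ones all had the same sign, and 10 of the 17 higher ones did. Cyp1a1 differed by 10.02, Cyp1b1 by 12.72, Cyp1a2 by 2.59, Nqo1 by 3.25, Pmm1 by 3.62, Exoc3 by 2.31, Ccbl1 by 1.92 and Inmt by -5.72. Of these, the TCDD values of Cyp1a2 (1.72, corn oil -2.98 to 2.31) and Nqo1 (0.60, corn oil -2.79 to 2.62) lay inside the corn oil range. The others named lay outside theirs. Of all 28 targets past 2-fold on the 7900HT, 19 had a TCDD value outside the corn oil range. Of the targets called before 384 h on each platform, 4 were called on both (Cyp1a1, Aldh3a1, Nqo1 and Pmm1), and 3 of these, all but Aldh3a1, were past 2-fold the same way at 384 h on both. Many animal codes recur in both raw tables, and the platforms are therefore not independent checks.

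The opposite signs were widest in Aldh3a1 and Ahrr. Aldh3a1 stood at 2.38 with TCDD on the 7900HT at 384 h and at 23.00 with corn oil in the authors' deposited table, where its other corn oil groups stood between -4.40 and 1.31. The difference of -20.62 rests on that 1 corn oil value, and against corn oil at 19 h it is 2.38. Ahrr stood at -3.08 with TCDD and 6.11 with corn oil at 384 h on the 7900HT in the authors' deposited table, and its corn oil groups there spanned -10.89 to 7.02. Tiparp differed by -3.51, with a TCDD value of -1.90 at 384 h after 5.28 at 240 h in the authors' deposited table. Cyp2s1, a further P450 enzyme, differed by 2.48 on the 7900HT and by -0.25 on the OpenArray. Uvrag differed by -1.46, Pde2a by -1.19, Nfe2l2 by -0.29 and Eml4 by -0.29. Across the 38 shared genes Pearson's r between platforms was 0.02 and Spearman's rho 0.35, and r was 0.86 over 36 genes without Aldh3a1 and Ahrr, which were left out after their values were seen. Cyp1b1, Cyp1a1 and Inmt, with wide differences of the same sign on both platforms, stayed in that set, so this r is no measure of agreement over the panel.

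On the 7900HT itself, 12 targets passed the same exact permutation test over the groups before 384 h (30.8%), 6 higher and 6 lower, with adjusted p from 0.0295 to 0.0492. Of these 9 were past 2-fold the same way at 384 h, 5 higher (Cyp1a1, Cyp1a2, Derl1, Nqo1 and Pmm1) and 4 lower (Cyb5a, Ern1, Ivns1abp and Sdc1). On the OpenArray Cyb5a and Sdc1 had the opposite sign at 384 h, at 0.61 and 0.22, and Ern1 and Ivns1abp stood at -0.13 and -0.65. The 3 that were not past 2-fold the same way were Aldh3a1, the proteasome maturation factor Pomp (-0.73) and the tropomyosin Tpm1, which differed by 0.27 at 384 h after a mean of -1.79 before. The lower calls before 384 h all have 2 rows per gene in the table of raw cycle values. The median difference at 384 h was 0.04 over the 14 targets with 4 rows and -0.29 over the 25 with 2 rows. Single calls rest on few groups: with 1 group left out, the higher calls ranged from 0 to 6 and the lower from 0 to 11, with 0 of both without TCDD at 3, 6, 19 or 96 h or corn oil at 19, 96 or 240 h, and with TCDD at 19 to 240 h alone the exact permutation test called 0, with 11 at an unadjusted p under 0.05. These 11 had the smallest exact permutation p that 35 splits allow, 0.0286, and the adjustment raised it to 0.101. The 0 calls therefore cannot be read as a lack of response. The SD across corn oil groups had a median of 0.97 (log2) over 7900HT targets and 0.21 over OpenArray targets.

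**Figure D4:**
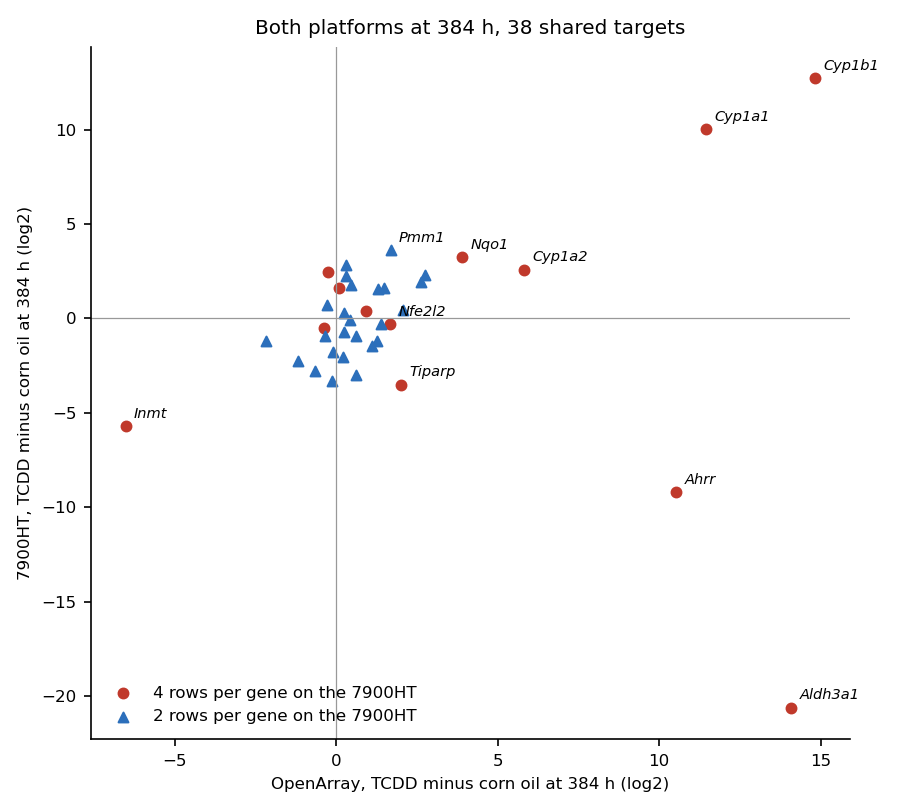
Difference at 384 h, TCDD minus corn oil on the log2 scale, on the OpenArray (horizontal axis) and the 7900HT (vertical axis) for 38 shared targets; circles are genes with 4 rows and triangles genes with 2 rows in the 7900HT table of raw values. Cyp1a1, Cyp1b1 and Inmt lie in the quadrants of equal sign, and Aldh3a1 (14.08 and -20.62) and Ahrr (10.52 and -9.19) in the quadrant of opposite sign.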

How the data were processed

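Liver RNA was reverse transcribed and measured by real-time PCR, per the labels' protocols. The deposited tables hold 1 log2 value per gene and group, which the authors computed against the strain's own corn oil group at 19 h (0 for every gene); the log base is inferred. The sources used here do not state the reference genes, how wells without amplification were treated or how animals were averaged. R 2.12.2 is named, per the submitters' processing notes. The 304 columns of raw cycle values carry codes that match no sample label and were not used; from those tables gene names and rows per gene were read, the other measure the authors deposited. Gapdh and Pgk1 have raw rows on both platforms and no fold change, and the OpenArray has such rows for Sdha, Rpl13a, Ppia, Hprt1 and Eef1a1. An ending on 4 gene names was removed. Of 50 names 47 matched a current RefSeq symbol (GRCr8) and 3 an older one. Promoter sequences are RefSeq's, for GRCr8, since the files name no build.

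Members, gene lists and tests were chosen with earlier results of these data known. A target counted as past 2-fold at an absolute difference of 1 log2 unit. Group means were compared by exact permutation tests, two-sided, adjusted by Benjamini-Hochberg at 0.05, with groups as units, so p-values measure the spread between group values; the smallest p is 0.00303 with 330 splits (120 for Ahrr, which lacks a corn oil group on each platform). The procedure was tested on simulated data with the same shift at every TCDD time. That shift was wider than most of the differences called on the OpenArray, so the simulation does not cover small or slowly building ones. Named are members of the lists, the 20 widest OpenArray differences at 384 h, targets called before but within 2-fold at 384 h, and those past 2-fold with opposite signs on the platforms. Other targets named for their step, sign or platform were chosen after their values were seen. Alternatives were other controls, centring, thresholds and groups left out. Software was matplotlib 3.10.9, scipy 1.17.1, pandas 2.3.3 and numpy 2.4.6 under Python 3.11.15.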

Additional observations from a re-analysis of the deposited data

How the results depend on the processing

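No paired analysis was possible because each group has 1 deposited value and the columns carry no replicate numbers; groups matched by time were compared by the sign of their differences, with no paired test. The number of animals and the unknown depth limit the precision of each value. Counts at 384 h were within 1.5 times of the reported ones for the other controls, while centring, the fold threshold and the groups entering the test moved them; the cause was not tested. With each group centred on its mean, 8 OpenArray targets were at least 2-fold higher at 384 h and 20 lower, 4 were called higher and 24 lower before 384 h, and 3 higher and 17 lower ones were called and still past 2-fold. With median centring, 5 were lower at 384 h, 5 called lower and 1 still lower. At a 4-fold threshold 11 were higher and 5 called ones still higher. With only times that have both groups 0 were called higher, and with TCDD at 19 h and later 22 higher and 6 lower, of which 3 lower were still past 2-fold, a count chosen after seeing the data. Leaving out 1 group gave 0 to 19 higher and 0 lower calls. Fewer splits raise the smallest p, but the run with 19 calls has as many splits as the others without a TCDD group.

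On the 7900HT a 4-fold threshold gave 9 higher and 9 lower at 384 h. Before 384 h, 11 were called lower with mean or median centring, 2 with adjustment over both platforms, and 0 higher and 0 lower with only times that have both groups or with TCDD at 19 h and later. These last runs have fewer splits, which raises the smallest p. Leaving out 1 group gave 0 to 6 higher and 0 to 11 lower. Called and still past 2-fold were 3 higher and 8 lower with mean centring, 8 lower with median centring, 8 higher and 8 lower with the genes of 4 and 2 rows centred apart, and 0 of both with TCDD at 19 h and later, the last chosen after seeing the data.

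Mean centring turned the sign at 384 h of Eml4 (-0.0683), Pde2a (-0.19), Perp (-0.15) and Uvrag (-0.34) on the OpenArray. It turned the difference before 384 h of Bbs2 (-0.31), Derl1 (-0.54), Hsd17b12 (-0.38), Neu1 (-0.35), Pde2a (-0.27), Perp (-0.25), Srxn1 (-0.15), Uvrag (-0.21) and Zfp422 (-0.39), and median centring that of Derl1 (-0.00274). Aldh3a1 on the 7900HT turned to 2.38 with corn oil at 19 h as control.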
